A study of Mus musculus with 6 samples.

Results

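Krüppel-like factors are transcription factors with a shared C-terminal zinc finger domain that binds CACCC boxes and GC-rich promoter elements. The genes described here are Klf2, Klf3, Klf4, Klf5, Klf6, Klf7, Klf9, Klf10, Klf13 and Klf15. They were taken by name, and all 34 probe sets paired with them by the platform annotation were used, of 45037 probe sets on the array. Of 18193 genes with a probe set of their own, these are 10. The proteins share the DNA-binding domain and differ outside it. Klf2, Klf4, Klf5, Klf6 and Klf7 are mostly activators, Klf3 is a repressor that recruits the CtBP co-repressors, and Klf9, Klf10 and Klf13 repress through Sin3A. In the kidney Klf15 is best known from podocytes and from the control of amino acid and glucose metabolism, and Klf2 and Klf4 from vascular endothelium.

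Affymetrix mouse arrays with 1 channel measured the total RNA of 6 samples. The 3 juxtaglomerular (JG) samples were sorted as YFP+ cells from adult C57BL6 mice of the Ren1c YFP genotype. Juxtaglomerular cells release renin from the wall of the afferent arteriole. The 3 renal mesenchymal stromal cell (MSC) samples came from adult mice of the same strain and genotype, were sorted by CD44 and were cultured to confluence in serum-containing DMEM. The same medium is repeated in the JG labels, which leaves it unsettled whether the JG samples were also grown in culture. Beyond "adult" no age is given, and nothing says that replicates were independent mice or cultures. The p-values therefore measure the spread between these samples.

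The JG label was checked against markers. Of 4 measured renin cell markers Rgs5 and Sparcl1 were called higher in JG, Gjc1 was called higher in MSC and Gja4 was not called. Ren1 was not analysed here. All 8 proximal tubule markers and all 5 thick ascending limb markers were higher in JG, as were 6 of 7 distal and collecting duct markers, so the samples labelled JG held much kidney epithelial RNA. Of the MSC markers, 2 of 5 (Cd44, Itgb1) were higher in MSC and 2 (Thy1, Nt5e) in JG. The MSC samples were sorted by CD44, so the Cd44 call is no separate check of their label. Of the 6 probe sets of Itgb1, 1 was called higher in JG. With 1 sample left out, Itgb1 was called in 2 of 6 fits and Nt5e in 1. Array medians ran from 27.3 to 36.5. The mean intensity, with 2% of values trimmed at each end, was 153 in JG sample 2 and 194 to 212 on the other arrays. JG sample 1 stood closest to the MSC samples, with correlations of 0.802 to 0.812 across genes, against 0.675 to 0.689 for JG sample 2 and 0.762 to 0.775 for JG sample 3. The JG samples also varied more: in log2 units the median SD over genes was 0.26 in MSC and 0.55 in JG.

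Intensities are given in array units. A difference is the JG mean minus the MSC mean, with its SE, of log2(intensity + 16), which understates changes of dim genes, and each gene is represented by its brightest probe set unless a probe set is named. A gene was called when its adjusted p was under 0.05 in limma (Benjamini-Hochberg, all genes), and a probe set when it passed the same threshold over all probe sets. In bulk RNA, fewer cells of a type and less RNA per cell cannot be told apart. Intensity also depends on the probe sequences, so it gives no order of levels between genes; it was used across probe sets only to choose the brightest of a gene and to sum markers within a sample.

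Klf15, Klf9 and Klf2 were called higher in JG and Klf7 was called higher in MSC. That is 3 of 10 in the JG direction, where 7.7% of all genes were called, and 1 of 10 in the MSC direction, where 7.71% were, and 4 of 10 in either direction, where 15.4% were. The share called over all genes depends on brightness. Without genes under the 25th percentile of intensity 2909 of 13645 were called, and without those under the median 2461 of 9097. The first filter kept all 10 genes and the second 8, and each time 2 were called higher in JG and 1 in MSC. The groups did not overlap for 6 of the 10, with JG above for Klf2, Klf9 and Klf15 and MSC above for Klf5, Klf7 and Klf10. Among all genes they did not overlap for 38.9%, 20.2% with JG above and 18.7% with MSC above. Differences went both ways, 5 up and 5 down, and their median was 0.00 beside 0.07 for all genes. In size the median difference was 1.20, beside 0.62 for all genes. The value for all genes includes dim genes, whose changes are understated, and was not matched for brightness, so it shows no trait of the family.

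**Figure D1:**
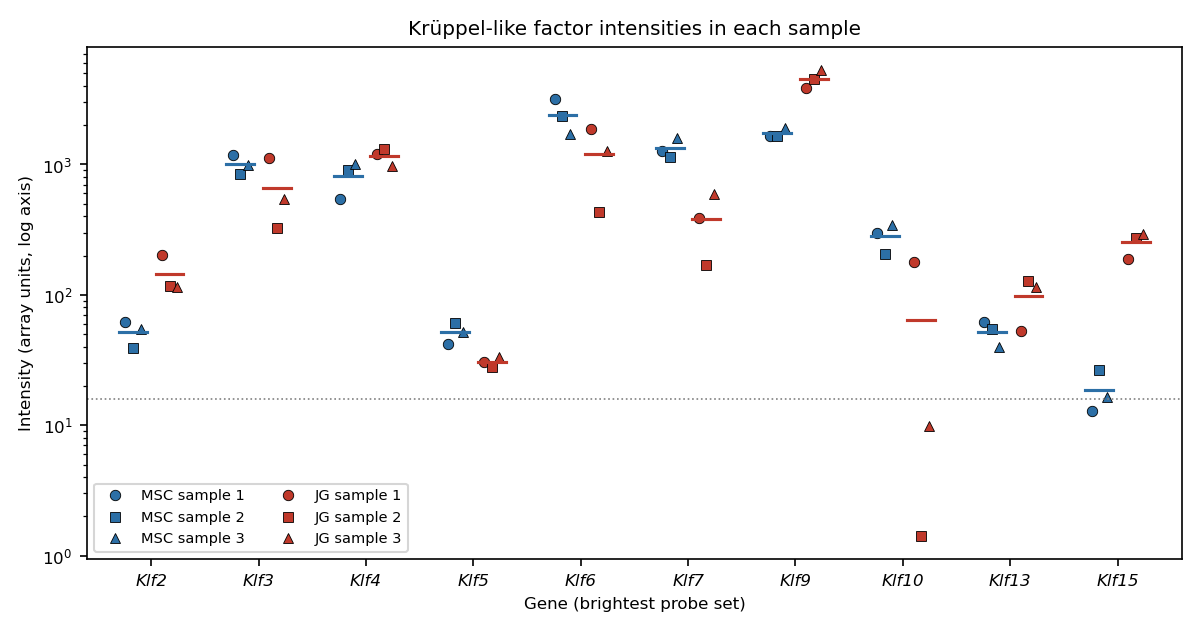
Intensity of the brightest probe set of each Krüppel-like factor gene in the 3 MSC samples (blue) and the 3 JG samples (red), on a log axis. Bars are group means and the dotted line marks an intensity of 16. Klf15 lies between 12.9 and 26.6 in MSC and between 189.7 and 294 in JG, and Klf10 runs from 1.42 to 179.9 within the JG samples.

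Because these 4 called genes differ in direction, the 250 bases before their RefSeq transcription start (GRCm38.p6) are shown, 5′ to 3′ on the gene's strand. RefSeq promoters were found for 8 of the 10 genes, Klf5 and Klf10 having none in the table used. Capitals mark matches, on either strand, to CACCC (the family's own box) and GGGCGG (the GC box of Sp and Krüppel-like factors). They also mark CACGTG (the E-box of basic helix-loop-helix factors, clock proteins included). The last pattern is a loose form of the MEF2 site (CTA and TAG with any 4 bases between them). The motifs were chosen after the differences were known. Klf15 lies at chr6:90462326-90462575 (+ strand), Klf9 at chr19:23140976-23141225 (+ strand), Klf2 at chr8:72318812-72319061 (+ strand) and Klf7 at chr1:64121390-64121639 (- strand).
Klf15: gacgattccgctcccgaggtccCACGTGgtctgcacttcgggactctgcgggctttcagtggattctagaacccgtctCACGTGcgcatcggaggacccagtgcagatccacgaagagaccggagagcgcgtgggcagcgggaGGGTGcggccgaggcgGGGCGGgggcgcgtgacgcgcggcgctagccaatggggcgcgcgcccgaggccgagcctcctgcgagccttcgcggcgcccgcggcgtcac
Klf9: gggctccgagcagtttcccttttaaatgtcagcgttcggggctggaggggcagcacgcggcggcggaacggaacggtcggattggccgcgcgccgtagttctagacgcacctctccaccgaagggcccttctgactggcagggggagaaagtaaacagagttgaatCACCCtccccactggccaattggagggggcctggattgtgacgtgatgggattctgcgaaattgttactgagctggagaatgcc
Klf2: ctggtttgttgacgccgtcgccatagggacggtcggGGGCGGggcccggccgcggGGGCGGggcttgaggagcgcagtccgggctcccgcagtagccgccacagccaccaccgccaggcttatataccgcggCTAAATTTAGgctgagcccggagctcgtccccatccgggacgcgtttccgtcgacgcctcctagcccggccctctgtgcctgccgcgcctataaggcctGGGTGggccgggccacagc
Klf7: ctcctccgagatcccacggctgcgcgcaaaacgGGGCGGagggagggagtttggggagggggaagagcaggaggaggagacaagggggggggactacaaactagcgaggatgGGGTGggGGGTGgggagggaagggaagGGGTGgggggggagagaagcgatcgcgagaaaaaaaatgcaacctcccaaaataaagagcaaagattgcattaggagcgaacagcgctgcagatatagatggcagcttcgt

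The loose MEF2 pattern was present in 1 of the 8 promoters, that of Klf2, as CTAAATTTAG starting 118 bases before the start. It was present in 3.2% of all 32851 promoter windows of this length, a share that counts more than MEF2 sites because any inner bases were allowed. CACGTG occurred in Klf15, at 2 places, and in Klf4 and Klf6, 3 of 8 genes against 6.02% of all windows. CACCC was found in 6 of 8 (52.0% of all windows) and GGGCGG in 7 of 8 (32.7% of all windows). The 8 windows held 59.2 to 78.4% G and C. The shares over all windows were not matched for this and count windows, not genes, so they show no trait of the family. The Klf9 window held a CACCC box and no GGGCGG, and Klf7 held CACCC at 3 places. These matches describe the letters of the windows and are not binding data.

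Klf15, a glucocorticoid-induced regulator of amino acid breakdown and gluconeogenesis, was called higher in JG. Its single probe set read 12.9, 26.6 and 16.4 in MSC samples 1 to 3 and 189.7, 274 and 294 in JG samples 1 to 3. Every JG sample was above every MSC sample, and the MSC values lay close to the added 16, so the log2 difference understates the ratio. The difference was 2.95 ± 0.28 (adjusted p = 0.00142, limma, n = 3 per group), and the JG mean was 13.5 times the MSC mean. The call held whichever sample was left out (adjusted p from 0.00166 to 0.0134) and under all 11 other settings.

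Beside Klf15, 2 of 7 metabolic genes that it is known to regulate rose in JG, Pck1 (6.35 ± 0.50, adjusted p = 0.000684), the gluconeogenic carboxykinase, and Prodh (4.90 ± 0.66, adjusted p = 0.00556), the proline oxidase. Pck1 lay at 2866, 714 and 1301 in JG samples 1 to 3 and at most at 1.48 in MSC. Bcat2, the branched-chain transaminase, was not called, with 29.2, 347 and 77.5 in JG and 34.2 to 53.0 in MSC. The list median was 0.94. Pck1 and Prodh are also abundant in proximal tubule, whose 8 markers summed to 321 to 597 per MSC sample and 26893 to 35005 per JG sample, and the part of tubule RNA in these differences and in that of Klf15 was not tested. Podocytes, where Klf15 is also known, left a mixed record: Podxl was called higher in JG and Synpo and Wt1 in MSC, and Nphs1, the nephrin gene, read 10.9, 49.5 and 8.37 in JG and at most 4.33 in MSC. Their 4 measured markers summed to 2432 to 4533 in MSC and 384 to 1796 in JG. Most of the MSC sum was Synpo, at 2145 to 4101, and only 1 of its 2 probe sets lay higher in MSC on average. Podxl read 21.5 to 23.9 in MSC and 99.8, 1013 and 227 in JG samples 1 to 3. The sums therefore give no direction for podocyte RNA.

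Klf9, a repressor induced by glucocorticoid and thyroid hormones, was read by 7 probe sets, the brightest of which gave 1666, 1659 and 1911 in MSC and 3876, 4519 and 5275 in JG. The groups were well apart and tight (SD 144 and 699.9), and the difference was 1.37 ± 0.23 (adjusted p = 0.0128). All 7 probe sets had a positive difference, from 0.24 to 1.37, and 2 of them were called over all probe sets, at adjusted p = 0.0160 and 0.0467. JG lay above MSC without overlap in 4 of the 7. The dim ones varied most within JG: 1 (suffix s) read 101, 4.05 and 184 in JG samples 1 to 3 and 43.0 to 49.6 in MSC. The call was lost without any 1 MSC sample (adjusted p = 0.0649, 0.0690 and 0.0552 without MSC samples 1, 2 and 3), and also when the 7 probe sets were averaged (0.73, adjusted p = 0.0566) or with 1 added in place of 16 (adjusted p = 0.0645).

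Of 10 genes of corticosteroid reception and response, 4 rose in JG and the other 6 were not called, with a list median of 0.80. Hsd11b1, which regenerates active glucocorticoid, rose by 5.50 ± 0.25 (adjusted p = 0.000100), with 1011, 659 and 687 in JG and at most 1.82 in MSC. Hsd11b2, which inactivates it in distal nephron cells, rose by 3.29 ± 0.26 (adjusted p = 0.000728). Zbtb16, a glucocorticoid-induced zinc finger gene, was 73.1, 688 and 656 in JG against 3.82 to 5.91 in MSC (4.07 ± 0.80, adjusted p = 0.0213). The mineralocorticoid receptor gene Nr3c2 rose by 1.25 ± 0.25 (adjusted p = 0.0208), and both these calls were lost without any 1 MSC sample, that of Zbtb16 also without JG sample 3 (adjusted p of up to 0.0887 for Zbtb16 and 0.0910 for Nr3c2). The glucocorticoid receptor gene Nr3c1 was not called, with 384 to 832 in MSC and 643 to 935 in JG, nor were the induced genes Fkbp5, Tsc22d3, Per1, Sgk1 and Dusp1. Fkbp5 split the JG samples, at 190.4, 16.3 and 488. Hsd11b2 is itself a distal and collecting duct marker. The other 6 markers of those segments summed to 25.3 to 45.5 in MSC and 5275 to 6912 in JG, and their part in the differences of Hsd11b2 and Nr3c2 was not tested.

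Klf13, the closest relative of Klf9 in this set, gave no single answer. Its brightest probe set read 62.3, 54.6 and 40.1 in MSC and 52.5, 127 and 115 in JG, so that JG sample 1 lay inside the MSC range and the others above it (0.68 ± 0.35, adjusted p = 0.238). The other 2 probe sets had differences of -1.28 and -0.35, neither called, and averaged over all 3 the difference turned to -0.32. Without JG sample 1 the brightest probe set was called higher in JG (1.01, adjusted p = 0.0333). That fit called 5301 of all 18193 genes, in place of 2803 with all samples.

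Klf10, the TGF-beta inducible early gene and like Klf9 a Sin3A-binding repressor, was not called. Its single probe set read 297, 206 and 345 in MSC and 179.9, 1.42 and 9.79 in JG. All JG samples were below all MSC samples, with JG sample 1 close to them and the other 2 below 16. The difference was -2.72 ± 0.89 (adjusted p = 0.0935), and without JG sample 1 it was -3.79 (adjusted p = 0.00183). With array weights it was also called (adjusted p = 0.00419), and under the other settings and samples left out it was not. The fits without JG sample 1 and with array weights called 5301 and 6429 of all genes, in place of 2803.

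Of 8 TGF-beta signalling genes 2 were called, both higher in MSC. Smad7, the inhibitory Smad and a direct TGF-beta target, was called at -2.67 ± 0.37 (adjusted p = 0.00586) and Tgfb1 at -2.61 ± 0.61 (adjusted p = 0.0363), and the list median was -1.07. Smad7 was 213, 253 and 187 in MSC and 26.6, 6.10 and 35.2 in JG, and both of its probe sets were called. Tgfb1 ranged from 56.8 to 336 in MSC and was 24.98, 10.3 and 4.88 in JG, and it lost its call without MSC sample 2 or 3 or JG sample 2 or 3 (adjusted p of up to 0.135). Skil, another TGF-beta target, was not called, at 331 to 891 in MSC and 18.3 to 212 in JG. The receptor genes Tgfbr1 and Tgfbr2 and the genes Smad2, Smad3 and Smad4 were not called. Smad3 read 26.1 in JG sample 2 and 895 or more on every other array.

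**Figure D2:**
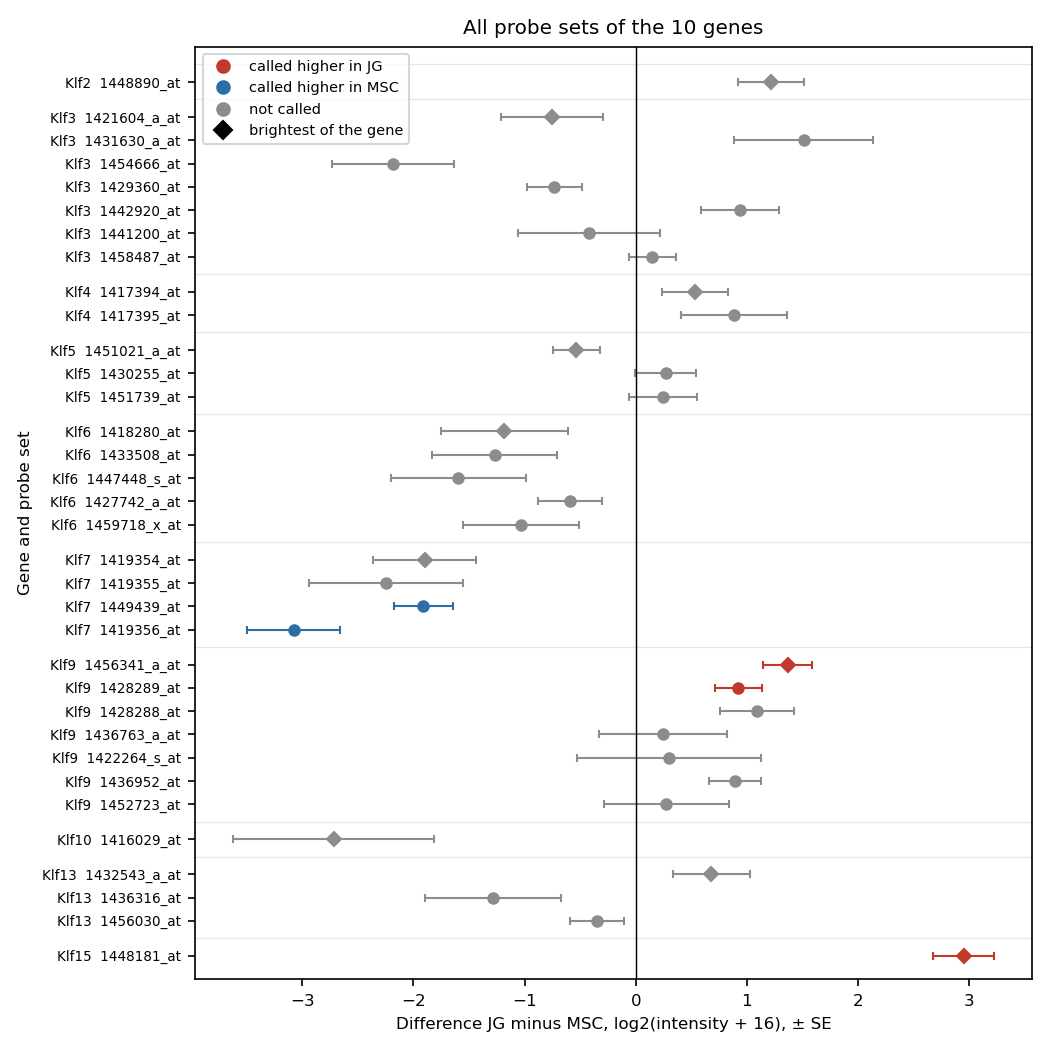
Difference JG minus MSC with its SE for all 34 probe sets, grouped by gene and ordered by brightness within a gene. Red and blue mark calls over all probe sets and diamonds the brightest probe set of a gene. The 4 probe sets of Klf7 and the 5 of Klf6 lie below 0 and the 7 of Klf9 above it, while those of Klf3, Klf5 and Klf13 fall on both sides.

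Counted over probe sets, 3 of 34 were called higher in JG (2 of Klf9, 1 of Klf15), where 4.23% of all probe sets were. In the MSC direction 2 of 34 were called, both of Klf7, where 5.57% of all probe sets were, so that count is near the background. Together 5 of 34 were called, beside 9.8% of all probe sets. The groups did not overlap for 15 of 34, beside 34.2% of all probe sets, with JG above in 7 (16.1% of all) and MSC above in 8 (18.1% of all).

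Among the activators, Klf7, which is best known from neurons and from adipocyte differentiation, was higher in MSC. Its brightest probe set read 1274, 1141 and 1583 in MSC and 388, 169 and 595 in JG, with no overlap (-1.90 ± 0.46, adjusted p = 0.0406). All 4 probe sets lay higher in every MSC sample than in any JG sample, with differences from -3.08 to -1.90. Over all probe sets the brightest was not called (adjusted p = 0.0544), nor was another (0.0986). The remaining 2 were called, at 0.00938 and 0.00932. The probe set with the largest difference was 193, 339 and 245 in MSC and 10.0, 6.10 and 40.0 in JG. The gene was not called without MSC sample 1, 2 or 3 (adjusted p = 0.125, 0.117 and 0.152), nor with 1 added in place of 16 (adjusted p = 0.0562). Averaged over its probe sets the difference was -2.28 (adjusted p = 0.00743).

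Klf6, the nearest relative of Klf7 and an early injury-response factor, showed 5 probe sets that all lay lower in JG on average, none of them called. The brightest read 3188, 2337 and 1703 in MSC and 1881, 435 and 1279 in JG, where JG sample 1 lay within the MSC range (-1.18 ± 0.57, adjusted p = 0.209). A second gave 1947, 2459 and 2057 in MSC and 2138, 670.2 and 470.0 in JG. In that probe set too JG sample 1 was as high as MSC and the others were below. Without JG sample 1 its adjusted p was 0.00915 (limma) over all probe sets, of which that fit called 10177, in place of 4413. Klf6, Klf10 and Klf3 thus shared a JG sample 1 near the MSC level. JG sample 1 was the JG sample nearest to the MSC mean for 6 of the 10 genes, and for 45.7% of all genes. JG sample 2 was the lowest JG sample for 5 of the 10, and for 40.8% of all genes.

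Genes of dividing cells were also on the MSC side: 4 of 5 (Top2a, Cdk1, Birc5, Kif11) were called higher in MSC, and the summed intensity was 1910.3 to 2588 in MSC and 368 to 677 in JG. Their part in the differences of Klf7, Klf6 and Klf10 was not tested.

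Klf2, the flow-induced factor of quiescent endothelium, had a single probe set at 61.4, 39.1 and 54.5 in MSC and 204, 117 and 114 in JG. All JG samples were above all MSC samples, and the difference was 1.22 ± 0.30 (adjusted p = 0.0439 over all genes, and 0.0554 over all probe sets). The call was lost without MSC sample 1, 2 or 3 (adjusted p = 0.110, 0.158 and 0.142) and without JG sample 2 or 3 (0.0502 and 0.0692). Of the other 11 settings 5 called it.

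Endothelial markers shared the group direction of Klf2. Of 10 markers 6 were called higher in JG, and 8 of the 10 lay below 16 in every MSC sample. Their sum was 109.8 to 153 in MSC and 1144, 1083 and 1470.5 in JG samples 1 to 3. Klf2 was 204, 117 and 114 there. Single markers differed in their order over the JG samples. Esam read 243, 71.8 and 153, Cdh5 66.9, 44.6 and 135, and Egfl7, which was not called, 43.7, 347 and 425. The sums therefore give no order of the JG samples to set beside that of Klf2. Tek, the angiopoietin receptor gene, read 572, 168 and 404 in JG. Pecam1 was low on all arrays, at 2.18 to 4.23 in MSC and 7.02 to 31.3 in JG. The part of endothelial RNA in the Klf2 difference was not tested. Of 6 vascular genes regulated by Klf2 and Klf4, Ptgds, a prostaglandin D synthase, was called higher in JG (3.91 ± 0.41, adjusted p = 0.00213), with 492, 209.7 and 606 in JG against 9.13 to 13.2 in MSC. Thbd, the thrombomodulin gene, and Nos3, the endothelial nitric oxide synthase gene, were not called. Thbd read 1367 to 2123 in MSC and 492 to 2169 in JG. Nos3 read 4.81 to 7.44 in MSC and 7.74 to 37.8 in JG, dim but without overlap. S1pr1 (-0.02), Edn1 (-0.09) and Vcam1 (-1.11) were not called either. The list median was -0.06, but the list was not split by direction of regulation, so the median gives no direction for these targets.

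The cascade upstream of Klf2 and Klf4, in which MEKK3 and ERK5 activate MEF2 proteins, divided between the groups. Of 13 genes 1 was called higher in JG and 3 higher in MSC, with a list median of -0.52. Mef2c was 18.8, 13.3 and 9.20 in MSC and 243, 76.0 and 137 in JG (2.38 ± 0.41, adjusted p = 0.0135). Mef2a (-2.56 ± 0.54, adjusted p = 0.0264), Mef2d (-1.40 ± 0.34, adjusted p = 0.0396) and Hdac7 (-2.33 ± 0.51, adjusted p = 0.0291), a deacetylase that restrains MEF2, were higher in MSC. Mef2a was 505 to 620.4 in MSC and 167, 27.4 and 112 in JG. Further probe sets of Mef2a, Mef2c, Mef2d and Hdac7 pointed the same way, and each of the 4 genes lost its call without any 1 MSC sample. Mef2a and Mef2d also lost it without JG sample 3, and Hdac7 without JG sample 2. The highest adjusted p with 1 sample left out was 0.105 for Mef2a, 0.0670 for Mef2c, 0.150 for Mef2d and 0.117 for Hdac7. The kinase genes Map3k3, Map2k5 and Mapk7 and the CCM complex genes Krit1, Ccm2 and Pdcd10 were not called. Over all probe sets, though, 1 of the 5 of Krit1 and 1 of the 3 of Ccm2 were called higher in MSC.

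Klf4, a factor of epithelial differentiation that also represses smooth muscle genes, was bright in both groups and not called. Its brightest probe set read 547, 909 and 1006 in MSC and 1212, 1304 and 979 in JG, and its other probe set 585, 477 and 657 in MSC and 1430, 506 and 1649 in JG. Both overlapped between groups (0.53 ± 0.31, adjusted p = 0.286, for the brightest). Among 7 smooth muscle genes 4 were called higher in MSC (Tagln -5.44, Cnn1 -4.06, Acta2 -3.09 and Smtn -1.92). Myh11, the smooth muscle myosin heavy chain gene, was called higher in JG (2.64). With 1 sample left out Tagln and Acta2 were called in all 6 fits, Cnn1 and Smtn in 3, lost without any 1 MSC sample (adjusted p of up to 0.0777 and 0.120), and Myh11 in 2, lost without MSC sample 1 or 3 or JG sample 2 or 3 (up to 0.0929). Myocd, which encodes the coactivator myocardin, and Srf were not called, with Srf at 2272 to 2908 in MSC and 1338 to 2020.0 in JG. The list median was -1.92.

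Klf5, an activator of proliferating epithelium and smooth muscle, was dim on all arrays. Its 3 probe sets ran from 11.2 to 61.1, and the brightest read 42.2, 61.1 and 52.2 in MSC and 30.4, 27.8 and 33.6 in JG. These did not overlap but were not called (-0.53 ± 0.23, adjusted p = 0.165), and the other 2 probe sets had differences of 0.27 and 0.25. Averaged over the 3 the difference was -0.01.

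Klf3, the CtBP-recruiting repressor, had 7 probe sets with opposite differences, none called. The brightest read 1175, 842 and 996 in MSC and 1121, 328 and 539.6 in JG (-0.75 ± 0.46, adjusted p = 0.310). Another was 844, 889 and 963 in MSC and 460.2, 91.8 and 141 in JG (-2.19 ± 0.55, adjusted p = 0.0606 over all probe sets), lower in every JG sample. One more went the other way, with 524, 226 and 226 in MSC and 357, 1457 and 1320 in JG samples 1 to 3 (1.51 ± 0.63, adjusted p = 0.186). The probe sets of Klf3 thus gave no common direction. Without JG sample 1 the brightest was called higher in MSC (adjusted p = 0.0378), in the fit that called 5301 of all genes.

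**Figure D3:**
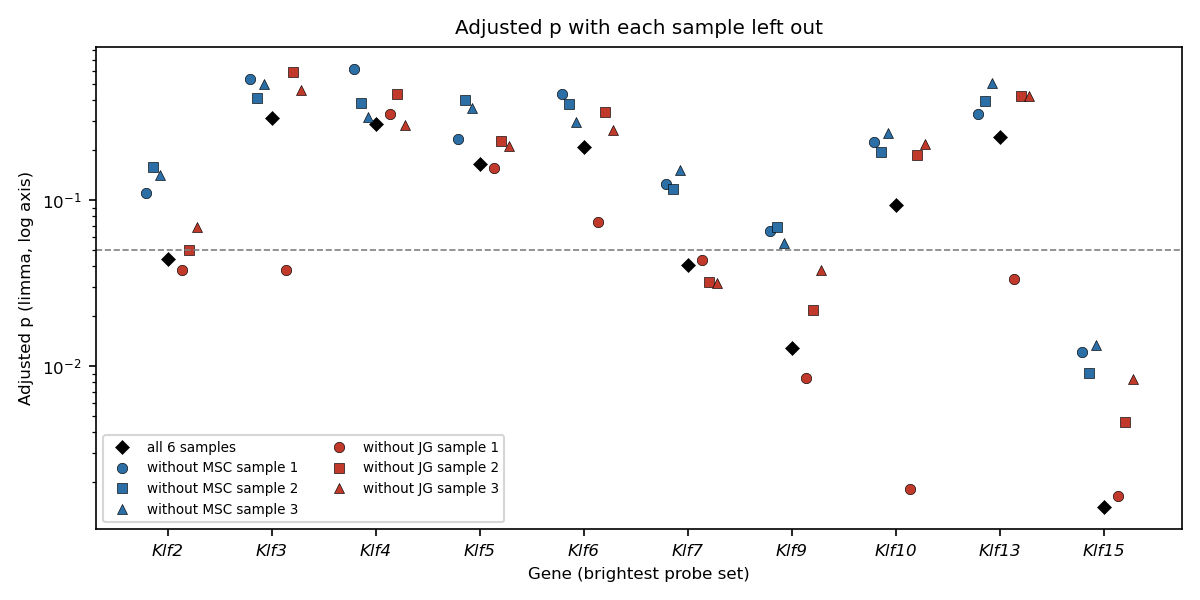
Adjusted p of the brightest probe set of each gene (limma, log axis) with all 6 samples (black) and with each sample left out in turn. The dashed line is 0.05. Klf15 stays below it throughout, Klf2, Klf7 and Klf9 lie above it without any 1 MSC sample, and Klf3, Klf10 and Klf13 fall below it without JG sample 1. The fit without JG sample 1 called 5301 of all 18193 genes, in place of 2803 with all 6 samples.

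Of the remaining family members 6 were measured. Klf16, a small GC-box repressor, was called higher in MSC (-2.06 ± 0.52, adjusted p = 0.0449), with 91.5, 217 and 208 in MSC and 29.4, 7.12 and 57.3 in JG, and its adjusted p was 0.0606 over all probe sets and up to 0.163 with 1 sample left out. Klf12, a CtBP-binding repressor like Klf3, was not called (2.07 ± 0.82, adjusted p = 0.143), and its 5 probe sets went both ways. A second probe set gave 1.72 ± 0.43 (adjusted p = 0.0582 over all probe sets), with JG above MSC without overlap. The rest had differences from -0.25 to 0.03. Without JG sample 3 the gene was called higher in JG (adjusted p = 0.0376). Klf11 was high in JG sample 1 only, at 348 against 34.0 and 55.0 in the others, and 47.0 to 92.7 in MSC. Klf14 ran from 10.5 to 62.1 over all arrays. The erythroid factor Klf1 and Klf17 stayed at or below 12.2 in the probe sets used here. Of 7 Sp factors, which share the zinc finger domain, Sp3 was called higher in MSC (-1.20 ± 0.31, adjusted p = 0.0483, and up to 0.164 with 1 sample left out). Sp1 was not called, at 647 to 807 in MSC and 271 to 475 in JG. The list medians were 0.22 and 0.09.

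Of 13 genes of co-repressors, co-activators and ubiquitin ligases that bind Krüppel-like factors, 2 were called, both higher in MSC. The deacetylase gene Hdac1 read 867, 852 and 911 in MSC and 273, 224 and 214 in JG (-1.82 ± 0.22, adjusted p = 0.00358) and kept its call whichever sample was left out. Fhl3, a LIM-domain partner of Klf3, was 128, 560.4 and 139 in MSC and 15.2, 27.7 and 5.47 in JG (-2.92 ± 0.60, adjusted p = 0.0243), and its call was lost without MSC sample 1 or 3 or JG sample 3 (adjusted p of up to 0.0754). Ctbp1, Ctbp2 and Sin3a were not called, and Wwp1, a ubiquitin ligase of Klf2 and Klf5, was 432 to 887 in MSC and 1001 to 1690.0 in JG without a call (1.11 ± 0.36, adjusted p = 0.0920). The list median was -0.40.

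Klf2, Klf4, Klf6 and Klf10 can act as immediate-early genes, which tissue dissociation is known to induce. A list of 15 genes of other families held such genes and also the heat shock genes Hspa1a and Hspa1b. Of these, Fosb (4.62 ± 0.83, adjusted p = 0.0153), Atf3 (2.66 ± 0.48, adjusted p = 0.0155) and Hspa1a (1.56 ± 0.33, adjusted p = 0.0274) were higher in JG. Fosl1 (-1.84) and Ier3 (-1.56) were higher in MSC. None of the 5 calls held with every sample left out. Fosb and Hspa1a were lost without any 1 MSC sample (adjusted p of up to 0.0712 and 0.111), Atf3 on leaving out JG sample 3 or MSC sample 1 or 3 (0.0707), and Fosl1 without MSC sample 2 or 3 (0.0943). Ier3 was called only without JG sample 1 among these fits (up to 0.154). Fosb read 219.5, 1743 and 2000 in JG and 17.7 to 31.7 in MSC, so it was lowest in JG sample 1. Egr1 was bright in both groups, at 2494 to 4397 in MSC and 2999 to 5349 in JG. The summed intensity was 10742 to 18277 in MSC and 14153 to 19761 in JG, and the list median was 0.27. The part of this response in the Krüppel-like factor values was not tested.

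**Figure D4:**
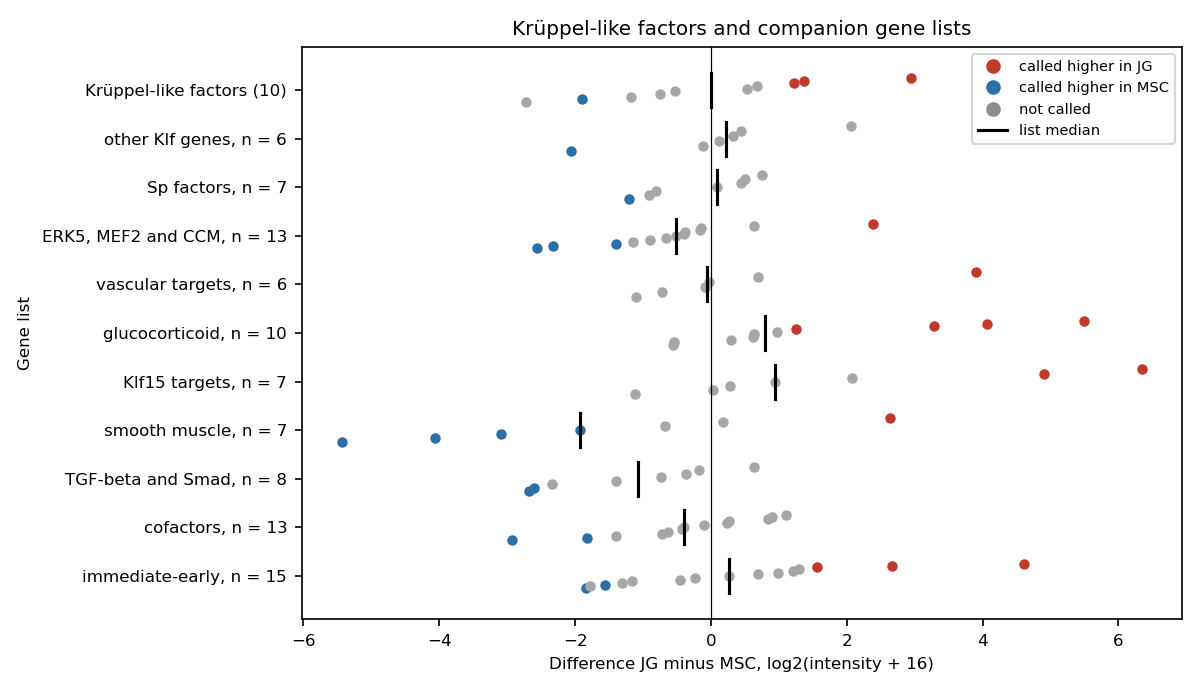
Difference JG minus MSC of each gene in the set of 10 Krüppel-like factors and in the 10 companion lists, with called genes in red (higher in JG) or blue (higher in MSC), uncalled genes in grey and the list median as a black bar. The Krüppel-like factors spread to both sides with a median of 0.00, and the smooth muscle list has the lowest median, -1.92.

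Other cell type markers differed as well and are given as measured. Leukocyte markers summed to 78.9 to 407 in MSC and 1586 to 3996 in JG (4 of 7 called higher in JG), and adventitial fibroblast markers to 7252 to 9793 and 9342 to 20068 (4 of 6). Most of the MSC fibroblast sum was Col1a1, which was not called; without it, left out after its values were seen, the other 5 summed to 289.6 to 913 in MSC and 4712 to 12619 in JG. Thick ascending limb markers summed to 47.4 to 52.5 and 8623 to 12046. The part of these cells in the Krüppel-like factor differences was not tested.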

How the data were processed

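Per the labels, biotin-labelled cRNA from 100 ng total RNA was hybridised to Affymetrix mouse arrays. The values the authors deposited are linear intensity readings, 1 for each probe set on each array, without detection calls. Summarisation, background correction and scaling by the authors are not given in the sources used here. The array medians differ, so the deposited intensity values were not quantile normalized. Of 45037 probe sets, 34945 were paired with 1 gene, 932 with several and 9160 with none. All 34 Krüppel-like factor probe sets matched RefSeq gene identifiers.

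Values entered limma 3.58.1 (R 4.3.3; lmFit and eBayes, no covariates) as log2 of the intensity plus 16, unfiltered. The gene fit used the probe set with the highest mean intensity per gene (18193 genes), and a further fit used all probe sets. The code was tested on simulated data. The smallest p an exact permutation test of 3 against 3 allows is 0.10, so none was run. Alternatives were quantile normalization, median centring, pseudocounts of 1 and 64, filters on dim features, averaged probe sets, exclusion of probe sets of suffix s or x, a trended robust prior, array weights, a replicate block, and each sample left out.

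The genes and lists were chosen with earlier results of these data known. Named were all 10 genes, the other measured family members, and up to 4 called genes per companion list and direction; uncalled list members and markers beyond the 3 brightest in JG were named after their values were seen. Figures were drawn with matplotlib 3.10.9.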

Additional observations from a re-analysis of the deposited data

How the results depend on the processing

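Of 168 values of the 10 genes under other settings, 140 kept their direction and their side of the threshold, 22 lost a call, 5 gained one and 1 turned: Klf13 at -0.32 with all probe sets averaged. Klf15 was called in every setting run. The difference of Klf10 was larger in size than that of Klf15 with a pseudocount of 1 (-4.05 against 3.72), with array weights (-3.23 against 3.08) and without JG sample 1 (-3.79 against 3.13). With a pseudocount of 1, limma called 1 gene higher in JG, 0 in MSC (2 at an unadjusted p under 0.05), with 1 probe set higher in JG and 2 in MSC. Of all genes it then called 1478 and 1077, and of all probe sets 3785 in place of 4413. With array weights it called 4 genes higher in JG (Klf13 gained) and 2 in MSC (Klf10 gained), with 7 probe sets higher in JG and 9 higher in MSC. Of all 18193 genes it then called 6429 in place of 2803, and of all probe sets 10426 in place of 4413. Without features under the 25th percentile, or under the median, 4 probe sets were higher in MSC, beside 4753 and 4526 of all probe sets called. Klf5 and Klf13 were not among the genes kept by the latter filter. Leaving out 1 sample gave 1 to 4 genes higher in JG and 0 to 3 in MSC (1 to 4 unadjusted), 1 to 8 and 0 to 8 probe sets (5 to 12 unadjusted for the latter), and 9 to 35 companion genes in place of 27. The highest counts came without JG sample 1, where 5301 of all genes and 10177 of all probe sets were called. The lowest came without an MSC sample, which leaves 1149 to 1235 of all genes and 1449 to 1694 of all probe sets called.

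With the replicate number as a block, limma called 1 gene higher in JG, Klf15 (Klf9 was at adjusted p = 0.0558 and Klf2 at 0.0791). It called 0 in MSC (2 at an unadjusted p under 0.05, with Klf7 at adjusted p = 0.0513). There was 1 probe set in each direction, beside 1603 of all probe sets, and 17 companion genes, beside 1594 of all genes. The labels do not say that numbers pair samples. Deviations of same-numbered samples correlated at -0.199, -0.00794 and -0.0107, and no sample correlated best with its own number. No pairing was seen in these values, but deviations from a mean of 3 samples cannot show that the samples were unpaired. The arrays number 3 per group, which limits precision, and without detection calls values under 16 carry little order.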
